A study of Mus musculus with 16 samples.

Results

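Kidney RNA of aged mice was compared between an AAV8 vector that expressed a short hairpin RNA against *Fos* (shFos group) and a vector with a non-targeting hairpin (NT group). All 8 kidney libraries of the series were taken by their labels, 4 shFos and 4 NT, out of 16 libraries in all. The other 8 libraries were livers given the same vectors and served only as a reference. All mice were labelled C57BL/6, wild type (WT) and 24 months of age, treated with shNT or shFOS. The study's methods describe females, injection through the tail vein at that age and tissue collection some months later, so both groups carry virus and differ in the hairpin. AAV8 given by this route is known to favor hepatocytes, and the share of kidney cells reached by the vector was not analysed here. The hairpin is a single sequence, and no second hairpin was used here. Total RNA was sequenced in libraries whose RNA selection is not given in the sources used here, reads were counted per gene without strand, and the values below are CPM, the counts of a gene relative to all counted reads, after TMM scaling, a between-library normalization. Of 24984 genes, 14892 had enough counts to be tested. Depth ranged from 14194543 to 15534665 counted reads per kidney library. The labels give replicate numbers but not whether each number is a separate mouse, so p-values measure the spread between these samples, which may be technical.

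Fos is a subunit of AP-1, a dimeric transcription factor formed by Fos, Jun, Atf and Maf proteins. The usual AP-1 motif is TGACTCA or TGAGTCA, and the search below used the looser form TGANTCA, with any base as N. AP-1 genes are immediate early genes, meaning that growth factors, cytokines and stress induce them within minutes, and AP-1 takes part in the transcription of cytokine, adhesion and stress genes. The kidney is built of glomeruli, which hold the podocytes, and of tubule segments, in which the proximal tubule reabsorbs most of the filtered solutes and carries out gluconeogenesis and drug secretion. The kidney identity of the libraries was plain from segment markers, with *Umod*, the thick limb gene uromodulin, at a mean of 4862 CPM and *Lrp2*, the proximal tubule receptor megalin, at 1906 CPM in NT kidneys. Bulk tissue cannot tell fewer cells of a type from less RNA per cell.

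Before any gene was considered, 2 libraries stood apart. On the first principal component, which held 46.1% of the variance, shFos replicates 2, 3 and 4 lay at 35.0, 46.5 and 36.4, whereas shFos replicate 1 lay at -16.6, among NT replicates 1, 2 and 3 at -11.02, -19.3 and -9.75. NT replicate 4 lay by itself at -61.3. The mean Pearson correlation of log2 CPM of shFos replicate 1 was 0.977 with the NT libraries and 0.967 with the other shFos libraries. That of NT replicate 4 was 0.952 with the other NT libraries. Whether the label of shFos replicate 1 is right could not be checked beyond its low *Fos* level given below, and it was kept as labelled. Results are therefore given with and without shFos replicate 1, and without NT replicate 4 where it moved them.

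**Figure D1:**
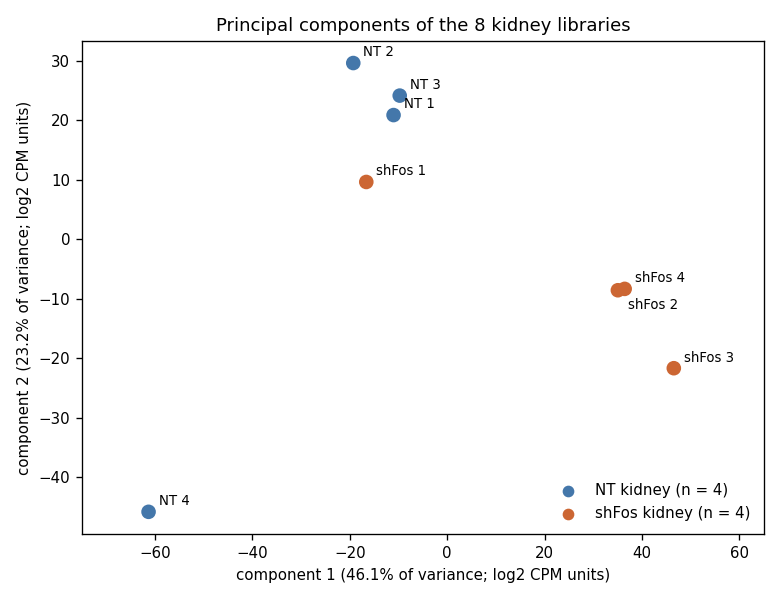
Principal components of the 8 kidney libraries, with component 1 (46.1% of variance) on the x axis and component 2 (23.2%) on the y axis, in log2 CPM units. Each point is 1 library, blue for NT and orange for shFos. shFos 1 sits with NT 1 to 3, and NT 4 sits apart from all others.

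The targeted gene was lower in shFos kidneys. *Fos* (ENSMUSG00000021250.13, chr12:85473890-85477273, + strand, mm10) was at 6.71, 5.26, 4.23 and 5.29 CPM in NT kidneys and at 2.57, 4.12, 3.93 and 2.30 CPM in shFos kidneys. The groups did not overlap, although NT replicate 3 and shFos replicate 2 differed by only a few reads (65 and 62 counts). The means were 5.37 ± 1.02 and 3.23 ± 0.929 CPM (SD, n = 4), a shFos level of 0.602 of NT. The log2 fold change was -0.73 (SE 0.25), with an adjusted p of 0.0947 by edgeR's quasi-likelihood test over all genes and an exact two-sided permutation p of 0.0286, the smallest that 4 against 4 libraries allow. The library with transcriptome-wide NT-like values, shFos replicate 1, had one of the 2 lowest *Fos* levels, and without it the log2 fold change was -0.67 (edgeR adjusted p 0.0972). By DESeq2 the adjusted p was 0.0463.

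The difference between shFos and NT kidneys was broad and small per gene. After adjustment edgeR called 0 of 14892 genes (0%) at 0.05. Before adjustment 4762 genes (32%) were below that threshold, of which 2547 (17.1% of genes tested) were higher and 2215 (14.9%) lower in shFos kidneys. The smallest adjusted p was 0.0650, shared by 941 genes, and 2992 genes were under 0.1. DESeq2 called 2581 of 15211 genes (17%), 1486 higher (9.77%) and 1095 lower (7.2%). Without shFos replicate 1, edgeR called 4173 of 15006 genes (27.8%), 1890 higher (12.6%) and 2283 lower (15.2%), which is the change of a count from 0 by 1 library. Without both this library and NT replicate 4 the count was 5171 of 14857 (34.8%). Below, "called" means an edgeR adjusted p under 0.05 without shFos replicate 1, since no gene passed with all 8 libraries. This choice was made after that library was seen to resemble NT kidneys, so these calls are conditional on leaving it out and are not a test in all labelled samples.

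Replicate separation gave a description that needs no threshold. All 4 shFos libraries lay above all 4 NT libraries for 1364 genes (9.16%) and below them for 1198 (8.04%). The separated higher genes had a median log2 fold change of 0.43, and 82 of them differed by more than 2-fold. The separated lower genes had a median of -0.50, with 181 beyond 2-fold. Protein-coding genes were 1355 of the higher and 1094 of the lower genes. The separated noncoding genes were mostly lower, with 1 higher and 23 lower of 178 lincRNAs tested and 1 higher and 23 lower of 165 antisense genes, whose reads cannot be told from those of the opposite strand in counts made without strand. Across all genes the median log2 fold change was 0.00.

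Each library was also set against genes chosen without it. When genes with an edgeR p under 0.05 were chosen from the other 7 libraries, the left-out library lay in the same direction for 96.5% to 99.0% of genes in shFos replicates 2, 3 and 4, and for 97.6% to 98.6% in NT replicates 1, 2 and 3. For shFos replicate 1 this share was 78.8%, and its median gene had moved 23.5% of the shift of the other shFos libraries. For NT replicate 4 the share was 86.7%. The genes were chosen with the same NT libraries that the left-out library was set against, so a library with no difference would also lie partly on the shFos side, and these shares are a description with no value for no difference beside them.

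Among the genes higher in shFos kidneys with the smallest p, a chaperone came first. *Hspa4l* (chr3:40744495-40796103, + strand), an Hsp110-type partner of Hsp70, was at 26.3, 22.2, 24.4 and 19.9 CPM in NT kidneys and at 41.2, 43.3, 42.8 and 44.8 CPM in shFos kidneys. All shFos kidneys, replicate 1 included, were far above every NT library, and lying above them was a condition for naming the gene. The *Hspa4l* level was 1.86 times that of NT (log2 fold change 0.89, SE 0.10, edgeR adjusted p 0.0650 with 8 libraries and 0.00152 without shFos replicate 1). *Pcdh7* (chr5:57717967-58133230, + strand), a protocadherin of cell-cell contacts, was at 7.17, 5.86, 5.21 and 4.90 CPM against 14.5, 14.0, 15.7 and 13.3 CPM. The groups were again far apart, with a shFos mean of 14.4 ± 0.998 CPM (SD, n = 4), or 2.49 times NT. *Mtrex*, the RNA helicase that feeds the nuclear exosome, was at 38.1, 31.5, 41.8 and 35.3 CPM against 53.3, 64.9, 65.4 and 76.3 CPM. *Rapgef5*, an exchange factor for the small GTPase Rap, was at 7.11 ± 0.763 CPM in NT kidneys and 14.4 ± 1.96 CPM in shFos kidneys (SD, n = 4). Smaller log2 fold changes, but with the groups well apart, were seen for *Kctd10*, a cullin 3 adaptor (0.66), *Fzd4*, a Wnt receptor (0.59), *Elf1*, an ETS transcription factor (0.56), *Plpp1*, a lipid phosphatase (0.56), *Dock1*, a Rac exchange factor (0.54), and *Ube2g2*, a ubiquitin-conjugating enzyme of endoplasmic reticulum quality control (0.44). All 10 genes of this paragraph were called, with edgeR adjusted p from 0.00152 to 0.00683, and all were at 0.0650 with 8 libraries. They were picked for small p and separation in these same libraries, so the calls are no separate evidence. The same holds for the calls of single genes picked by p or size of change below.

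The largest differences among separated higher genes rested mainly on shFos replicates 2, 3 and 4. *Lmbrd2* was at 8.74, 7.21, 8.47 and 6.70 CPM in NT kidneys and at 9.32, 35.1, 41.6 and 36.7 CPM in shFos kidneys (log2 fold change 1.98). Replicate 1 was barely above the NT range here, and the other shFos kidneys were beyond 3 times any NT value. *Ston1*, an endocytic adaptor, was at 7.63, 7.95, 9.97 and 6.64 CPM against 15.3, 26.5, 39.3 and 27.6 CPM (1.75). *Mgat5*, which branches N-glycans, was at 4.996, 3.98, 5.67 and 3.16 CPM against 9.13, 16.5, 19.0 and 14.7 CPM (1.73). *Cpne4*, a calcium-dependent membrane-binding protein, and *Mansc4* had log2 fold changes of 1.82 and 1.74, with NT replicate 4 the lowest library of all for both at 1.61 and 1.48 CPM. All 5 were called.

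The genes lower in shFos kidneys were led by the clock gene *Per3* and the cytokine receptor *Osmr*. *Per3* (chr4:151003652-151044665, - strand), a period protein, was at 27.7, 25.7, 16.9 and 28.3 CPM in NT kidneys and at 9.38, 8.11, 5.44 and 6.91 CPM in shFos kidneys, 0.303 of NT (log2 fold change -1.72, SE 0.21, edgeR adjusted p 0.0650 with 8 libraries and 0.00174 without shFos replicate 1). *Osmr* (chr15:6813577-6874969, - strand), the oncostatin M receptor of the IL-6 cytokine family, was at 56.1, 49.5, 52.4 and 52.3 CPM against 37.4, 37.6, 34.8 and 31.8 CPM, 0.673 of NT. Both groups were tight for *Osmr*, with SDs of 2.71 and 2.72 CPM, and shFos replicate 1 lay with the other shFos kidneys for both genes. *Cdc25b*, a phosphatase for entry into mitosis, was at 15.6, 19.3, 21.6 and 19.0 CPM against 12.3, 10.04, 10.6 and 10.4 CPM. *Sirt7*, a nuclear deacylase, was at 64.8, 67.4, 59.5 and 63.6 CPM against 49.7, 32.9, 34.1 and 32.5 CPM, with shFos replicate 1 between the groups. Also lower were *Ptp4a3*, a tyrosine phosphatase (log2 fold change -0.73), *Ppargc1b*, a coactivator of mitochondrial genes (-0.64), *Rnaseh2a*, the catalytic subunit of RNase H2 (-0.63), the nucleolar gene *Nol12* (-0.46) and *Gpcpd1*, a glycerophosphodiesterase (-0.43). All 9 genes were called, with edgeR adjusted p from 0.000539 to 0.0125.

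The largest differences among separated lower genes depended on single NT kidneys more often. *Dbp*, a clock output factor, was at 4.93, 21.4, 9.51 and 20.3 CPM in NT kidneys and at 1.29, 4.46, 2.22 and 1.997 CPM in shFos kidneys (log2 fold change -2.49). The groups were separated by a small gap, NT kidneys spread widely, and the groups overlapped after the GC and length correction described below. *Higd1c* was at 1.77, 2.56, 1.56 and 11.6 CPM against 1.09, 0.266, 0.358 and 0.307 CPM (-3.07), and *Ciart*, a circadian repressor, at 1.58, 2.09, 1.498 and 5.87 CPM against 0.771, 0.0665, 0.501 and 0.538 CPM (-2.54). NT replicate 4 was the highest library for both, and without it the log2 fold changes were -1.92 for *Higd1c* and -1.86 for *Ciart*. *Prg4*, which encodes lubricin, was at 13.1 CPM in NT replicate 4 and between 1.01 and 2.41 CPM in the other NT kidneys. Its log2 fold change of -2.53 became -0.99 without NT replicate 4 and -1.12 without shFos replicate 1 as well, and it was not called (edgeR adjusted p 0.0862). *Mirt1*, a lincRNA, was at 1.51, 1.15, 3.13 and 0.838 CPM against 0.450, 0.0665, 0.501 and 0.230 CPM (-2.38).

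**Figure D2:**
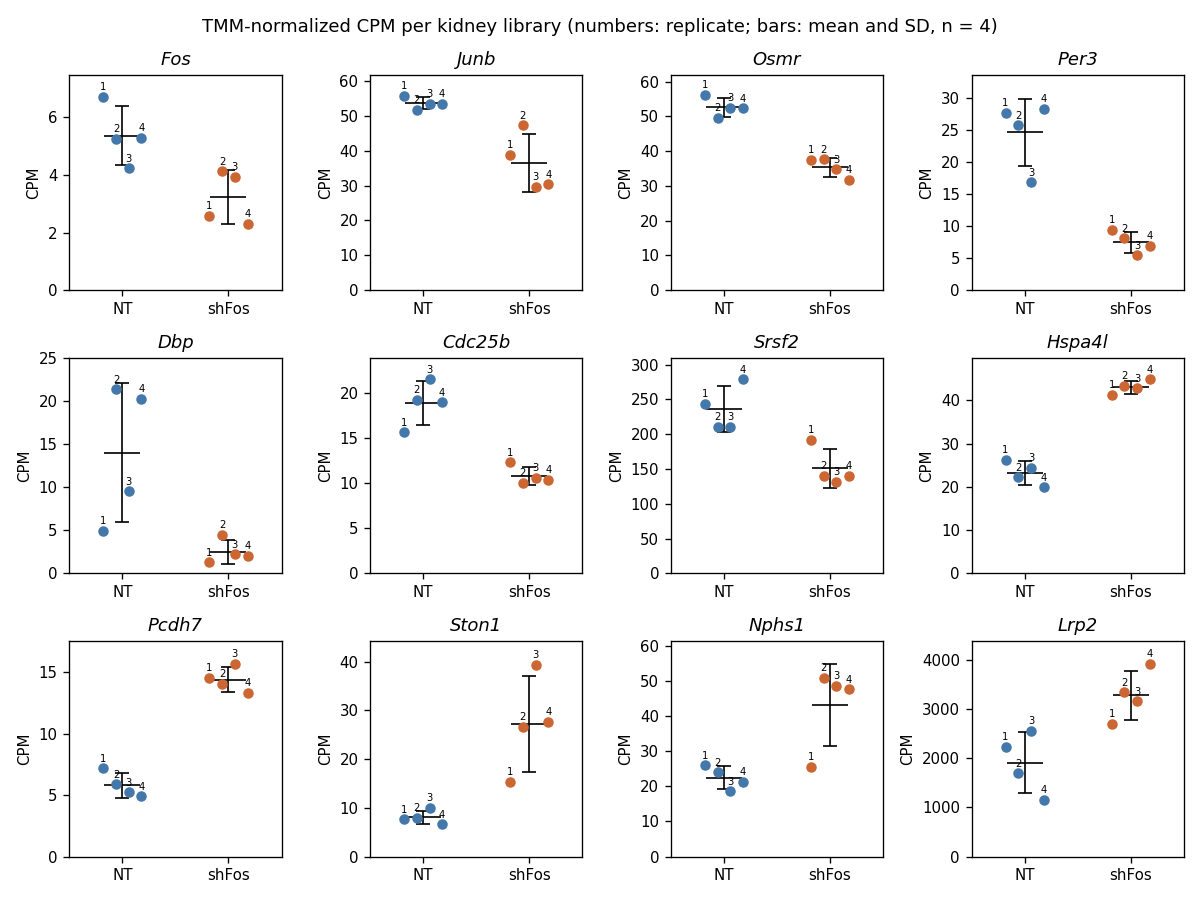
TMM-scaled CPM (y axis, from 0) of 12 genes in the 4 NT (blue) and 4 shFos (orange) kidneys, with replicate numbers at the points and horizontal bars for mean and SD. *Hspa4l*, *Pcdh7*, *Per3* and *Osmr* are separated in every replicate, whereas *Nphs1* has shFos replicate 1 at 25.6 CPM, within the NT range, and the other shFos kidneys at 47.7 to 50.9 CPM.

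The direction of a gene was related to its base composition and length. Genes were split into deciles by the GC content of a single annotated transcript per gene. It was a coding one where available, chosen by annotation status and then by length. The median log2 fold change went from 0.22 in the lowest GC decile (median GC 40.3%) to -0.25 in the highest (59.95%), a difference of -0.47 that declined at every step. In the lowest decile 73.9% of genes were higher in shFos kidneys, 14.4% were separated higher and 3.11% separated lower. In the highest decile 20.9% were higher, 0.945% separated higher and 18.8% separated lower. By transcript length the order was the opposite, from -0.17 in the shortest decile (median 895 bases) to 0.16 in the longest (7858 bases). Separated higher genes had a median GC content of 46.9% and a median length of 4096.5 bases, and separated lower genes 55.0% and 2188 bases.

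The slope was a property of libraries as well as of groups. Against the NT mean, the highest GC decile minus the lowest was -0.114, 0.156, -0.036 and -0.003 log2 units in NT kidneys and -0.120, -0.391, -0.706 and -0.645 in shFos kidneys. shFos replicate 1 had the slope of NT replicate 1, and shFos replicates 2, 3 and 4 were outside the NT range. For length, NT kidneys ranged from -0.079 to 0.082 and shFos kidneys from 0.192 to 0.369, so that these groups did not overlap. Livers had means of -0.002 ± 0.031 (NT) and 0.013 ± 0.051 (shFos) for GC and 0.002 ± 0.158 and -0.058 ± 0.103 for length (SD, n = 4), with no gap between groups. The share of reads on no gene was 22.1% to 26.7% in the 8 kidneys, and its part in the slope was not tested.

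**Figure D3:**
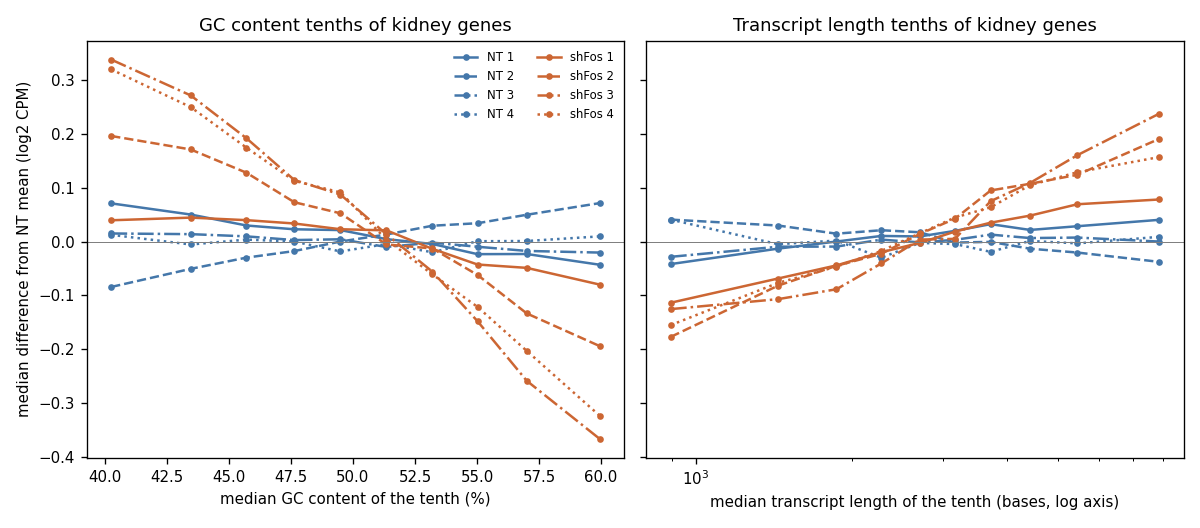
Median difference from the NT mean (y axis, log2 CPM) of kidney genes in deciles by GC content (left, %) and transcript length (right, bases, log axis), with 1 line per library, blue for NT and orange for shFos. shFos 2, 3 and 4 fall steeply with GC and rise with length, and shFos 1 follows the NT lines for GC.

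Removing both trends library by library left most of the separation in place. After the GC and length correction 1248 genes (8.38%) were separated higher and 972 (6.53%) lower, with a median GC content of 50.1% and 49.99%. Of the genes separated higher before it, 871 (63.9%) were so after it, and of those lower 692 (57.8%). Without shFos replicate 1, edgeR called 3370 genes (22.5%) on corrected values, 1703 higher and 1667 lower. Of the genes named above, *Pcdh7*, *Plpp1*, *Kctd10*, *Ube2g2* and *Mtrex* led the higher genes after correction and *Per3*, *Osmr*, *Gpcpd1*, *Cdc25b* and *Nol12* the lower. *Hspa4l*, whose transcript has 39.5% GC, went from 0.89 to 0.62, and *Sirt7*, with 58.4% GC, from -0.77 to -0.53, while *Per3* (52.4%) went from -1.72 to -1.78. A GC trend that comes from library preparation and one that comes from the tissue cannot be told apart in these data.

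As examples, 120 bases from the middle of the coding sequence are printed for the gene with the smallest p among the higher genes of the lowest GC decile and among the lower genes of the highest. G and C are in capitals, and the windows come from the mm10 transcripts ENSMUST00000204702.2 (bases 1446 to 1565) and ENSMUST00000080202.11 (bases 586 to 705). The windows hold 45% and 50% G and C, and the whole transcripts 39.5% and 58.4%. The deciles rest on the whole transcripts, and the windows alone do not show the trend.
Hspa4l: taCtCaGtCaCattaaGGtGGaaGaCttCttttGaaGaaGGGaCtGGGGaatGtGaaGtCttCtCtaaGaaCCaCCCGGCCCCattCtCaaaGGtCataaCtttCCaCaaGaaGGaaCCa
Sirt7: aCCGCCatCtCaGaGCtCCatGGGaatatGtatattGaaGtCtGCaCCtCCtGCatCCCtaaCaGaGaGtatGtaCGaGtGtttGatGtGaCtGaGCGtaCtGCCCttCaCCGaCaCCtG

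Gene groups were described by lists for 33 functions and 18 cell types. Counts in each list are read against the shares over all genes, 9.16% separated higher, 8.04% separated lower, and 12.6% and 15.2% called higher and lower without shFos replicate 1. No list was tested as a set. Among the separated members named below, *Jak1*, *Socs3*, *Clk4*, *Prpf8*, *Scd1*, *Slco1a6*, *Egfl7*, *Tek*, *Cdh2*, *Lamb1*, *Gadd45b* and *Trp53* overlapped between groups after the GC and length correction.

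**Figure D4:**
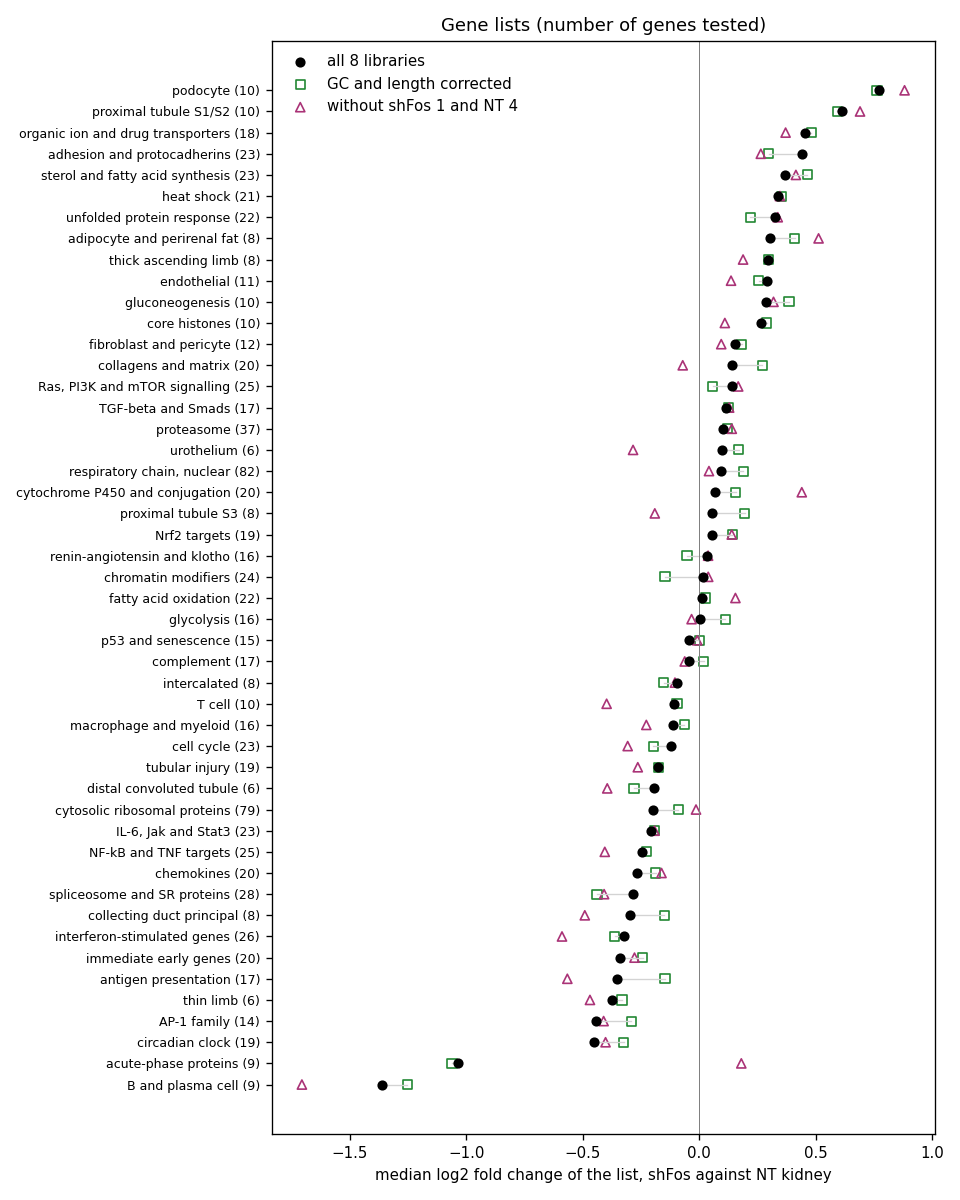
Median log2 fold change (x axis, shFos against NT kidney) of the gene lists with at least 6 genes tested, with the number tested in brackets. Black circles are all 8 libraries, green squares the GC and length corrected values, and purple triangles the values without shFos 1 and NT 4. Podocyte and proximal tubule S1/S2 lists lie above 0.5 and AP-1, clock and immediate early lists below -0.2 under all 3, whereas the acute-phase list crosses 0.

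The AP-1 family lay on the lower side. Of 15 genes, 14 were tested, 12 had a negative log2 fold change, 3 were separated lower and 0 higher, and 5 were called lower and 0 higher. *Fos*, the target of the hairpin, is counted in this list and among its separated genes, of which *Junb* and *Fosb* were the others. The median was -0.44, and -0.29 after the GC and length correction. *Junb*, a Jun partner of Fos, was at 55.8, 51.6, 53.5 and 53.4 CPM in NT kidneys and at 38.9, 47.2, 29.6 and 30.3 CPM in shFos kidneys. Every shFos kidney was below the narrow NT range, but the difference of -0.55 became -0.27 after correction and the groups then overlapped. *Fosb*, the close homolog of *Fos*, was at 1.65 ± 0.396 CPM in NT kidneys and 0.634 ± 0.302 CPM in shFos kidneys (SD, n = 4, log2 fold change -1.36) and remained separated after correction. *Jund* was at 193 ± 12.2 and 150 ± 23.4 CPM. *Jun*, the main partner of Fos, was at 54.0 ± 7.2 and 53.8 ± 9.6 CPM with fully overlapping groups (edgeR adjusted p 0.98). *Fosl1* had at most 2 counts in any kidney and was not tested. After correction and without shFos replicate 1, 0 of the 14 genes were called in either direction.

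Immediate early genes were mostly lower too. Of 20 genes, 15 had a negative log2 fold change, 4 were separated lower and 1 higher, with a median of -0.34 (-0.24 after correction). *Egr1*, a zinc finger factor, was at 54.9, 27.4, 29.2 and 24.0 CPM in NT kidneys and at 12.7, 22.3, 15.7 and 16.3 CPM in shFos kidneys. The groups were separated with a gap of under 2 CPM between NT replicate 4 and shFos replicate 2. *Ier2* was at 18.3 ± 1.19 and 12.1 ± 1.25 CPM and *Klf10*, a TGF-beta-induced factor, at 35.7 ± 3.56 and 21.5 ± 5.22 CPM (SD, n = 4). *Btg2*, an antiproliferative gene, was at 52.96 ± 4.07 and 43.0 ± 2.01 CPM. All 4 were called lower (edgeR adjusted p from 0.00345 to 0.0494). *Sgk1*, a kinase that mineralocorticoids and glucocorticoids induce in the kidney, went the other way, with 160, 112, 145 and 209 CPM in NT kidneys and 303, 220, 413 and 265 CPM in shFos kidneys (log2 fold change 0.94, edgeR adjusted p 0.0356 without shFos replicate 1).

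In the IL-6, Jak and Stat3 list, receptors differed in direction. Of 24 genes 23 were tested, 3 were separated higher and 6 lower, and 3 were called higher and 8 lower. Below NT were the receptor chains *Osmr*, *Csf2rb* (19.5 ± 5.62 and 9.60 ± 0.731 CPM), *Csf3r* (7.64 ± 2.02 and 4.26 ± 0.825 CPM) and *Il4ra* (48.9 ± 3.5 and 40.5 ± 2.3 CPM). *Socs3*, the feedback inhibitor induced by Stat3, was at 19.0, 17.6, 20.1 and 40.8 CPM in NT kidneys and at 11.8, 16.8, 11.8 and 13.1 CPM in shFos kidneys. These groups were separated, but *Socs3* was not called (edgeR adjusted p 0.0826), and NT replicate 4 was its highest library. Above NT were *Il6st*, the shared gp130 receptor chain, at 125, 115, 128 and 117 CPM against 142, 197, 197 and 169 CPM, and the kinase *Jak1* at 129 ± 13.2 and 177 ± 27.8 CPM, both called. *Stat3* itself was at 161 ± 32.3 and 139 ± 12.8 CPM with overlapping groups, and *Il6* had at most 7 counts and was not tested.

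NF-kB and TNF targets had fewer separated genes. Of 25 genes, 0 were separated higher and 4 lower, 19 had a negative log2 fold change, and 4 were called lower. *Nfkbiz*, an inducible nuclear cofactor of NF-kB, was at 28.004, 30.7, 25.2 and 42.7 CPM in NT kidneys and at 21.5, 12.0, 14.0 and 13.2 CPM in shFos kidneys. *Zc3h12a*, an RNase that degrades cytokine transcripts, was at 12.2 ± 1.27 and 7.04 ± 1.03 CPM (SD, n = 4). Both remained separated after correction. *Il1b*, the cytokine, was at 9.20, 10.9, 7.62 and 3.80 CPM against 2.76, 4.92, 4.01 and 3.46 CPM, with NT replicate 4 inside the shFos range, and *Nfkbia* was at 58.8 ± 6.8 and 55.6 ± 8.8 CPM. The list median of -0.24 became -0.11 without NT replicate 2 and -0.40 without NT replicate 4.

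Other inflammatory lists turned on single NT kidneys. Of 20 chemokine genes tested, only *Cxcl1*, a neutrophil attractant, was separated, at 2.50, 4.18, 2.15 and 3.74 CPM against 1.48, 1.46, 1.14 and 1.15 CPM. The medians of chemokines (-0.27), interferon-stimulated genes (-0.32, 26 genes) and antigen presentation (-0.35, 17 genes) became 0.11, 0.09 and 0.14 without NT replicate 2, and 0 interferon-stimulated or antigen presentation genes were separated. *H2-K1*, a class I molecule, shows the pattern, at 588, 1243, 499.6 and 438 CPM in NT kidneys and at 430, 491, 694 and 367 CPM in shFos kidneys. Acute-phase genes had a median of -1.04 over the 9 of 15 tested, which became 0.21 without NT replicate 4. *Lcn2*, the injury and acute-phase marker NGAL, was at 218 CPM in that library and at 47.9 to 69.4 CPM in the other NT kidneys, against 15.9 to 72.8 CPM in shFos kidneys. Of 17 complement genes, 1 was separated higher and 1 lower, and 2 were called higher and 1 lower (median -0.05). *C4b* was at 55.4, 71.8, 64.0 and 112 CPM in NT kidneys and at 21.7, 39.0, 44.6 and 20.1 CPM in shFos kidneys and was separated lower.

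Circadian clock genes moved in both directions. Of 19 genes, 3 were separated higher and 5 lower, with 3 called higher and 5 lower, and the median was -0.45. Below NT were *Per3*, *Dbp*, *Ciart*, *Bhlhe41* (log2 fold change -0.97) and *Tef*, a clock output factor at 183, 216, 185 and 308 CPM against 140, 133, 109 and 115 CPM. Above NT were *Arntl*, which encodes the activator Bmal1, at 26.7, 14.0, 24.8 and 17.2 CPM against 43.4, 38.8, 49.1 and 41.5 CPM, and its partner *Npas2*, at 16.8, 11.8, 19.5 and 12.7 CPM against 35.2, 26.5, 36.0 and 29.7 CPM. For both, all 4 shFos kidneys, replicate 1 included, were above all NT kidneys. *Clock* was at 51.6 ± 7.1 and 80.4 ± 17.2 CPM. *Nr1d1*, the Rev-erb alpha repressor, was at 14.6, 72.7, 75.7 and 92.2 CPM against 16.5, 36.7, 26.6 and 23.7 CPM, where NT replicate 1 alone made the groups overlap. Clock genes vary with the time of day, the time of collection is not given for single samples in the sources used here, and its part in these values was not tested.

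Splicing factors were mostly lower in shFos kidneys. Of 28 spliceosome and SR protein genes, 7 were separated lower and 2 higher, 17 were called lower and 3 higher, and the median of -0.29 was -0.44 after the correction and also without shFos replicate 1. *Srsf2* was at 244, 211, 210 and 279 CPM in NT kidneys and at 192, 140, 131 and 140 CPM in shFos kidneys. *Srsf11* was at 199, 206, 183 and 255 CPM against 176, 85.9, 116 and 105 CPM, and *Clk4*, a kinase of SR proteins, at 58.6, 59.2, 55.2 and 87.7 CPM against 54.7, 25.4, 28.04 and 29.3 CPM. In all of these shFos replicate 1 was nearer to the NT range than the other shFos kidneys were. The list has a median GC content of 43%, in the part of the genome where most genes were higher, so its members lay against the GC trend. *Prpf8*, the core protein of the catalytic spliceosome, was separated higher (log2 fold change 0.30).

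Heat shock and unfolded protein response genes were higher. Of 21 heat shock genes, 19 had a positive log2 fold change, 4 were separated higher and 0 lower, and 9 were called higher and 2 lower. The median was 0.34 and lay between 0.28 and 0.40 under all alternatives. *Hspd1*, the mitochondrial Hsp60, was at 388, 323, 368 and 271 CPM in NT kidneys and at 404, 512, 556 and 556 CPM in shFos kidneys, and *Hspa4* at 168, 144, 164 and 118 CPM against 175, 222, 230 and 225 CPM. The classic inducible genes did not follow them, with *Hspa1a* at 16.4 ± 3.6 and 17.7 ± 7.7 CPM (SD, n = 4), and *Hspb1* and the regulator *Hsf1* were called lower. Of 22 genes of the unfolded protein response, by which the endoplasmic reticulum adjusts its chaperones, 5 were separated higher and 0 lower, and 9 were called higher and 2 lower (median 0.32, 0.22 after correction). The sensors *Ern1* (9.73, 8.96, 9.51 and 10.8 CPM against 14.5, 20.2, 20.03 and 18.1 CPM) and *Atf6* (63.9 ± 5.06 and 89.8 ± 11.9 CPM) and the folding enzyme *Pdia6* (191 ± 23.4 and 250 ± 17.6 CPM) were separated. *Ddit3*, which encodes the stress factor Chop, was called lower, at 16.4 ± 2.6 and 11.3 ± 3.5 CPM. Proteasome genes had 4 separated higher and 0 lower of 37, with a small median of 0.10, for example *Psmd5* at 44.8 ± 2.39 and 59.9 ± 2.93 CPM.

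Metabolic lists differed in how many genes stood apart, and gluconeogenesis had shares above those of all genes. Of 10 gluconeogenesis genes, 4 were separated higher and 0 lower, and 4 were called higher (median 0.29, 0.39 after correction). *G6pc*, glucose-6-phosphatase, was at 527, 275.5, 398 and 154 CPM in NT kidneys and at 690, 741, 1181 and 866 CPM in shFos kidneys, 2.57 times NT. *Fbp1*, fructose bisphosphatase, was at 808, 685, 832 and 426 CPM against 868, 1135, 1155 and 1301 CPM. For both genes the NT replicate 4 value was the lowest. *Pck1*, the first committed enzyme of the pathway, was at 2115 ± 724 and 2561 ± 979 CPM with overlapping groups. All 23 sterol and fatty acid synthesis genes had a positive log2 fold change (median 0.37), of which *Scd1* alone was separated and 2 were called, *Idi1* among them. Of 18 organic ion and drug transporters tested, 17 had a positive log2 fold change (median 0.46), 1 was separated higher, *Slco1a6*, at 188, 161, 241 and 141 CPM against 242, 302, 389 and 432 CPM, and 3 were called. Fatty acid oxidation had 0 separated of 22 genes and a median of 0.01, and glycolysis had 3 separated higher of 16 with a median of 0.00.

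The proximal tubule markers differed in the same direction as these genes. The summed level of the 10 S1/S2 markers was 9238, 8044, 9755 and 5086 CPM in NT kidneys and 9393, 12615, 14146 and 13957 CPM in shFos kidneys. shFos replicate 1 lay inside the NT range and NT replicate 4 below every other library. All 10 markers had a positive log2 fold change, 1 was separated higher, *Lrp2*, at 2235, 1692, 2548 and 1148 CPM against 2702, 3338, 3151 and 3914 CPM, and 4 were called. Their part in the higher metabolic genes was not tested. The S3 segment markers had summed means of 3126 ± 678 and 3092 ± 857 CPM (SD, n = 4).

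Podocyte markers gave the highest median of all lists. All 10 genes had a positive log2 fold change with a median of 0.77 (0.76 after correction, between 0.69 and 0.91 under all alternatives), 8 were called higher and 0 lower, but only *Clic5* was separated, and after correction 0 were. *Nphs1*, which encodes nephrin of the slit diaphragm, was at 26.03, 24.0, 18.6 and 21.3 CPM in NT kidneys and at 25.6, 50.9, 48.6 and 47.7 CPM in shFos kidneys. *Synpo*, an actin regulator of foot processes, was at 79.5, 67.1, 61.6 and 49.9 CPM against 70.4, 134, 126 and 126 CPM. In both, shFos replicate 1 was within the NT range and the other 3 shFos kidneys were above it. The summed level was 723, 654, 579 and 527 CPM in NT kidneys and 648, 1167, 1257 and 1123 CPM in shFos kidneys.

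Distal segments differed in direction. The distal convoluted tubule markers had 0 separated of 6 and 2 called lower, *Slc12a3*, the thiazide-sensitive cotransporter, at 2147, 2028, 1492 and 1442 CPM against 1720, 1012, 1070 and 1008 CPM, and *Trpm6*, a magnesium channel, at 45.6 ± 12.9 and 28.4 ± 4.68 CPM. Of 8 principal cell markers of the collecting duct, 0 were separated and 3 were called lower. These were the sodium channel subunit *Scnn1b*, at 96.9, 83.4, 72.0 and 92.7 CPM against 72.9, 54.9, 58.0 and 54.8 CPM, *Hsd11b2* and *Fxyd4*. The water channel *Aqp2* was at 319 ± 87.3 and 260 ± 160 CPM with overlapping groups. In the thick ascending limb all 8 markers had a positive log2 fold change and 2 were separated, *Cldn10* (145, 175, 195 and 155 CPM against 203, 205, 227 and 224 CPM) and *Egf* (1136, 1041, 948 and 567 CPM against 1310, 1616, 1284 and 1775 CPM). Of 8 intercalated cell markers, 0 were separated and 1 was called lower, with a list median of -0.095. The called gene was the exchanger *Slc4a9*, at 101.2, 89.2, 79.7 and 148 CPM against 80.8, 39.9, 39.6 and 39.9 CPM.

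**Figure D5:**
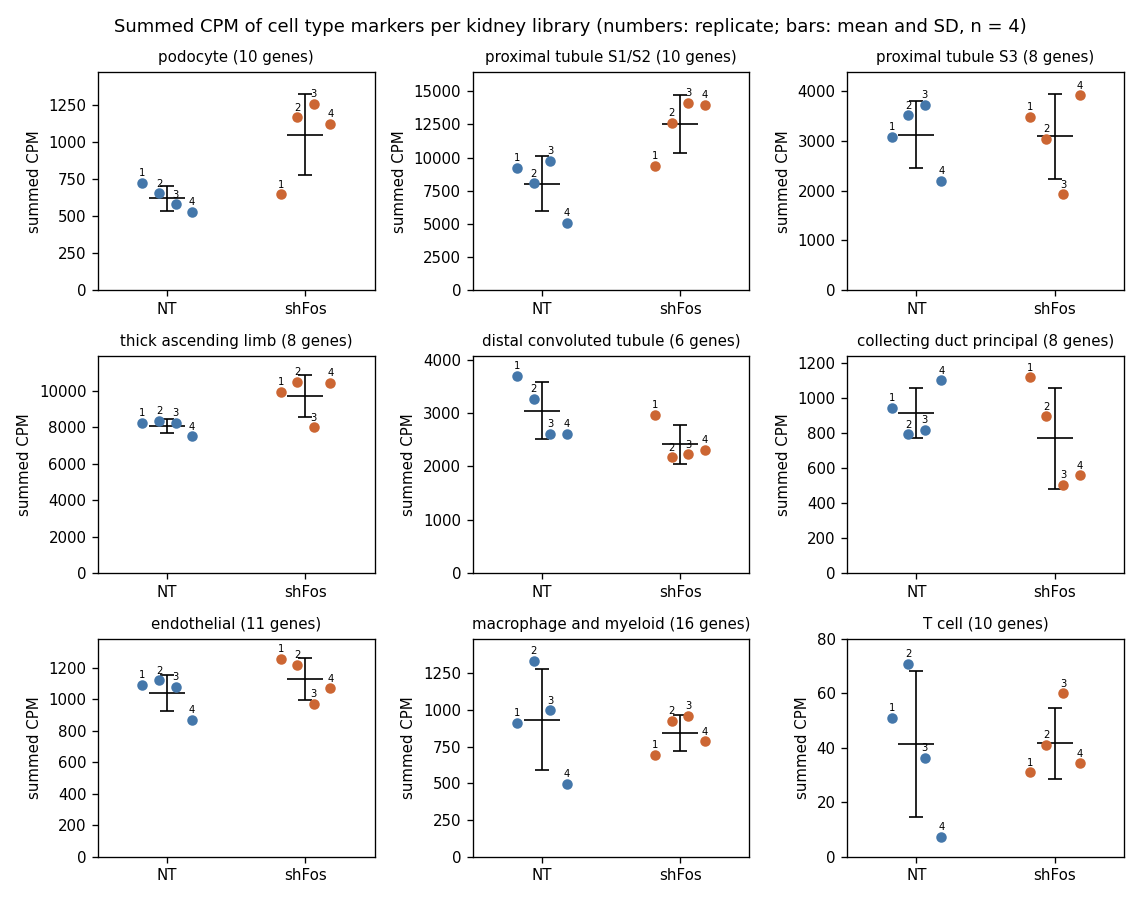
Summed CPM (y axis, from 0) of cell type marker lists in each NT (blue) and shFos (orange) kidney, with replicate numbers and bars for mean and SD. Podocyte and proximal tubule S1/S2 sums of shFos 2, 3 and 4 are above all NT kidneys, shFos 1 is within the NT range, and macrophage and T cell sums overlap with NT 4 lowest.

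Endothelial markers had members on both sides, and no macrophage or T cell marker was separated. Of 11 endothelial markers, 5 were separated higher, among them the receptors *Kdr* (63.0, 47.8, 62.5 and 38.6 CPM against 72.7, 89.8, 81.2 and 80.9 CPM) and *Tek* (41.3 ± 4.99 and 52.8 ± 3.25 CPM), and 1 lower, *Egfl7* (64.5, 83.6, 64.0 and 65.2 CPM against 62.8, 40.4, 29.5 and 36.7 CPM). The summed endothelial level was 869 to 1120 CPM in NT and 973 to 1258 CPM in shFos kidneys. Of 16 macrophage and myeloid markers, 0 were separated and 0 called, and their sum was 494 to 1333 CPM in NT and 695 to 958 CPM in shFos kidneys. T cell markers, with 0 separated of 10, summed to 7.15 to 71.0 and 31.0 to 60.01 CPM. B and plasma cell genes had a median of -1.36 that became -0.09 without NT replicate 3. Of 9 tested, 8 had a negative log2 fold change, but the only separated gene was higher. Their sum was 48.9 to 350 CPM in NT and 226 to 342 CPM in shFos kidneys. Adipocyte markers were highest in shFos replicate 2, where *Ucp1* was at 117 CPM, and the list median of 0.30 became -0.68 without it. Of 9 neutrophil markers, *Ly6g*, *Mpo* and *Elane* had at most 4 counts in any kidney and only 3 markers were tested. All 3 had a negative log2 fold change, with 1 separated lower and 1 called lower. Their median of -0.89 became 0.37 without NT replicate 4. They summed to 26.3 CPM in that library, 8.02 to 12.7 CPM in the other NT kidneys and 5.84 to 10.2 CPM in shFos kidneys.

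Adhesion genes were the other list on the higher side. Of 23 adhesion and protocadherin genes, 20 had a positive log2 fold change, 7 were separated higher and 0 lower, and 10 were called higher (median 0.44, 0.30 after correction and 0.28 without NT replicate 4). *Itgb1*, the common beta chain of integrins, was at 331, 325, 348 and 297 CPM in NT kidneys and at 385, 474, 461 and 470 CPM in shFos kidneys. *Itgb8* was at 18.9, 10.2, 14.2 and 7.15 CPM against 16.002, 71.2, 86.0 and 87.9 CPM, with replicate 1 again at the NT level. *Cdh2*, N-cadherin, was at 5.89 ± 0.588 and 10.3 ± 2.70 CPM. In the Ras, PI3K and mTOR list 6 of 25 genes were called higher and 0 lower, and the median of 0.14 was 0.06 after correction. In the TGF-beta list *Bmpr1a* (75.1 ± 3.99 and 103 ± 13.4 CPM) and *Ccn2*, a matricellular target of TGF-beta and Yap (136, 132, 116 and 119 CPM against 133, 241, 236 and 204 CPM), were called higher, and the inhibitor *Smad7* (27.7 ± 1.83 and 22.3 ± 2.76 CPM) was called lower.

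Matrix, hormone and housekeeping groups differed in their counts. Of 20 collagen and matrix genes, 2 were separated higher, the laminins *Lamc1* (65.1 ± 1.21 and 81.1 ± 5.46 CPM) and *Lamb1* (195 ± 3.17 and 215 ± 11.1 CPM), and the median of 0.14 became -0.07 without shFos replicate 1 and NT replicate 4. In the renin-angiotensin and klotho list *Enpep*, aminopeptidase A, was at 83.8, 68.1, 79.3 and 54.8 CPM against 91.7, 163, 203 and 158 CPM, and *Kl*, klotho, at 536, 448, 496 and 310 CPM against 604, 600, 753 and 694 CPM. Both were separated and called higher, 2 of the 3 called higher among 16 genes tested. Cytosolic ribosomal proteins had 71 of 79 genes with a negative log2 fold change, but their median of -0.20 was -0.02 without NT replicate 4. For the 82 nuclear genes of the respiratory chain tested, 6 were separated higher and 5 lower, and after correction 26 and 0. An example is *Ndufs7*, separated lower at a log2 fold change of -0.36 and at -0.03 after it. Cell cycle and core histone genes had 0 separated of 23 and of 10 tested.

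Tubular injury and p53 genes had few separated members. Of 19 injury genes, 1 was separated lower, *Sox9*, a factor of tubule repair, at 6.25, 4.52, 3.71 and 5.35 CPM against 3.21, 3.06, 1.36 and 3.07 CPM, and 3 were called lower, among them the metallothionein *Mt1* (406 ± 170 and 217 ± 26.5 CPM). *Havcr1*, the injury marker Kim-1, was at 9.8 ± 5.1 and 11.7 ± 3.7 CPM with overlapping groups. Of 15 p53 and senescence genes tested, *Gadd45a* (26.8 ± 2.32 and 20.2 ± 0.715 CPM), *Gadd45b* (12.7 ± 2.44 and 8.42 ± 1.03 CPM) and *Trp53* (46.9 ± 3.71 and 38.3 ± 3.76 CPM) were separated and called lower. After the correction 1 gene was separated lower and 1 higher, and without shFos replicate 1 the corrected calls were 3 higher and 1 lower. *Cdkn1a*, which encodes p21, was at 52.6 ± 30.7 and 44.8 ± 5.7 CPM.

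Promoters of separated genes held TGANTCA, the looser form of the AP-1 motif, at shares near, and slightly below, that of all tested genes. These differences were not tested. In the 300 bases from 250 before to 50 after the start (RefSeq, GRCm38.p6), TGANTCA, searched on both strands, was found in 6.62% of 11672 promoters of tested genes, in 5.68% of separated higher and in 5.39% of separated lower genes. The related CRE motif TGACGTCA was found in 3.26%, 3.31% and 4.12%, and the E-box CACGTG in 11.2%, 12.0% and 11.2%. For separated lower genes of the AP-1, immediate early, IL-6 and NF-kB lists, 10 promoters were read. They did not cover all such genes, and *Egr1* and *Nfkbiz* were not among them. Among the 10, those of *Fos*, *Fosb* and *Junb* included, TGANTCA was found in the promoter of *Osmr* alone, as TGATTCA, without the usual middle C or G. It is printed because *Osmr* had the smallest p among the lower genes of those lists (chr15:6874264-6874563, - strand, GRCm38.p6), with the motif, which starts at base 254, in capitals. The RefSeq start used here differs from the GENCODE bounds given for *Osmr* above, and the window lies inside those bounds.
Osmr: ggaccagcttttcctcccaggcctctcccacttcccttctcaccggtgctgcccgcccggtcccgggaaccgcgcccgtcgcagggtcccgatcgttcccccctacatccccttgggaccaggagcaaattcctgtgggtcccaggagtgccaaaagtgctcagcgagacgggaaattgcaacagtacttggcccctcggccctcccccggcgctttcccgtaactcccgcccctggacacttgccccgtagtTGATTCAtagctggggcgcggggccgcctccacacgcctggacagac

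The livers of the same series showed fewer separated genes. Of 13144 liver genes tested, 567 (4.31%) had separated groups. For 897 (6.82%) the unadjusted edgeR p was under 0.05, and 0 passed after adjustment. The test of the difference between the tissues, an interaction term over all 16 libraries, called 0 of 15421 genes by edgeR, with 2478 (16.1%) at an unadjusted p under 0.05, and 281 by DESeq2. Without the libraries of replicate 1 it called 449. The test took all libraries as independent, and whether a kidney and a liver came from the same mouse was not checked. Median log2 fold changes of the AP-1 list were -0.44 in kidney and -0.37 in liver, and those of the heat shock list 0.34 and 0.16. For the unfolded protein response they were 0.32 and -0.28, and for adhesion genes 0.44 and 0.01, and the differences between these medians were not tested.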

How the data were processed

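Gene counts of 8 kidney and 8 liver RNA-seq libraries were used. Per the labels, the authors trimmed reads with Trimmomatic 0.39, aligned them to mm10 with HISAT2 2.2.1 and made the deposited raw count tables with HTSeq 0.12.4. Lines that summarise unassigned reads were left out of library sizes. Kidney libraries held 14194543 to 15534665 counts, so that 3 counts, taken as a floor, equal 0.193 to 0.211 CPM. These limits cover counting error only.

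Genes were kept with filterByExpr, scaled by TMM and tested by edgeR 4.0.16 quasi-likelihood fits in R 4.3.3 on kidney libraries alone, with Benjamini-Hochberg adjustment over all genes. The scripts were tested on simulated data. Alternatives were DESeq2 1.42.0, other scaling and filters, GC and length offsets by lowess, each library left out, and a replicate block. Leaving out shFos replicate 1 and NT replicate 4 together, and basing calls on the fit without shFos replicate 1, were chosen after seeing the data. GC content and length came from GENCODE M21 transcripts, matched for 99.4% of tested genes. Groups were called separated where all 4 TMM CPM values of one lay above all of the other.

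Beside *Fos*, genes named singly were, in each direction and among separated genes with a mean of at least 1 CPM in the higher group and no predicted-gene symbol, the 8 with the smallest p, the 5 with the largest fold change, and the 5 with the smallest p after the GC and length correction. In each list the 4 members with the smallest p and its defining genes could be named, and any other list member named was chosen after its values were seen. The members and lists were chosen with earlier results of these data known. Some genes are not reported here.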

Additional observations from a re-analysis of the deposited data

Results flagged for a closer look

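Of 102 values examined in groups of 4 kidneys, 8 had a single distant library. About 5.1 such cases would arise by chance in unselected, independent groups. These were neither, since genes were picked from these same libraries, so the figure is only a rough guide. NT replicate 4 accounted for 6. It had the highest level of *Higd1c* (11.6 CPM, others 1.56 to 2.56), *Ciart* (5.87 CPM, others 1.5 to 2.09) and *Prg4* (13.1 CPM, others 1.01 to 2.41), and the lowest of *Mansc4* (1.48 CPM, others 3.50 to 3.91). Its summed thick ascending limb markers were 7515 CPM against 8237 to 8352 CPM, and its summed endothelial markers 869 CPM against 1080 to 1120 CPM.

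shFos replicate 1 accounted for the other 2, with *Sirt7* at 49.7 CPM against 32.5 to 34.1 CPM and *Higd1c* at 1.09 CPM against 0.266 to 0.358 CPM in the other shFos kidneys.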

How the results depend on the processing

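The count of genes at an edgeR adjusted p under 0.05 was 0 with all 8 kidneys and depended on the libraries and the tool. It was 2581 by DESeq2, 987 in a fit of all 16 libraries, and 0 to 4173 when each library was left out, with 3 without NT replicate 4 and 4173 without shFos replicate 1. It was 5171 without both, and 3370 without shFos replicate 1 after the GC and length correction. The kidney genes whose groups do not overlap numbered 2774 to 6173 when a library was left out, with 6173 without shFos replicate 1 and at most 3770 without any other. Separation is easier to reach with fewer libraries in a group, so these counts cannot be compared with the 2562 of all 8 kidneys. The cause of the differences among them was not tested. The interaction count was 281 by DESeq2 and 0 to 449 with 1 replicate number left out. The *Fos* log2 fold change was -0.73 by DESeq2 (adjusted p 0.0463) and -0.87 to -0.60 over all alternatives, with adjusted p from 0.0463 to 0.236. With the replicate block, edgeR called 0 genes, the kidney genes at unadjusted p under 0.05 numbered 3809, and *Fos* was at -0.75 (edgeR adjusted p 0.184). Same-numbered kidneys did not deviate together (correlations of -0.173, -0.003, 0.116 and -0.145), so the numbers were not taken as pairs. Of the 29 named genes under 20 alternatives, 0 changed direction. Counts limit genes near the floor, and 4 libraries a group limit all others.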
